A study of Mus musculus with 8 samples.

Results

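The genes described here encode proteins of membrane fusion and vesicle traffic, at secretory vesicles and at internal membranes. By family these are genes for the VAMPs, syntaxins and SNAP-25 relatives (SNARE proteins), syntaxin-binding proteins, complexins, synaptotagmins, synapsins, Sv2 proteins and Rab3 GTPases. They were chosen by gene symbol, which gave 65 of the 23038 genes in the deposited table. Of these, 47 had a mean of at least 1 RPKM (reads per kilobase of gene length and per unit of library depth) in control or knockout libraries and are described. The other 18 stayed under that level in both groups, and 4 of them, Vamp7, Cplx4, Syt8 and Syt10, were listed at 0 in all 8 libraries.

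RNA was sequenced from CAD cells (Cath.a differentiated), a mouse catecholaminergic neuronal line, cultured undifferentiated in fetal bovine serum. In 4 libraries (PFN1 KO) the cells carried a CRISPR-Cas9 deletion of Pfn1, which encodes profilin 1, a binder of actin monomers, and 4 libraries were controls. The control titles read wild type and their genotype label reads Control KO, and what those cells received is not given in the labels. The labels call the libraries of a condition biological replicates and do not say whether separate clones were grown, so every p-value here speaks of the spread among these libraries, which may be technical.

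A SNARE complex forms when an R-SNARE on the vesicle, such as a VAMP, zips together with Q-SNAREs on the target membrane, a syntaxin and a SNAP-25 type protein, and the pull of zippering merges the membranes. Munc18-type proteins, encoded by Stxbp genes, hold and guide the syntaxin, complexins clamp and then assist the assembled complex, and synaptotagmins of the calcium-binding kind trigger fusion when calcium enters. Synapsins tether vesicles in reserve, Sv2 proteins are membrane glycoproteins of secretory vesicles, and Rab3 GTPases guide vesicles to release sites. In catecholaminergic cells this machinery releases transmitter and peptide from dense-core and clear vesicles.

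Pfn1 RNA was 423 ± 16.4 RPKM in the controls (SD, n = 4) and 139 ± 10.8 RPKM after knockout (SD, n = 4), or 32.9% of control, and the ranges of 399 to 436 and 130.2 to 152 RPKM did not overlap. Of 16 markers of a catecholaminergic neuronal line, 15 reached 1 RPKM, and their summed level was 1142 to 1196 RPKM in control and 1353 to 1434 RPKM in knockout libraries. The markers did not move alike: Chgb, for the granule protein chromogranin B, went from 162 ± 20.7 to 347 ± 15.5 RPKM and made up most of the difference, while Dbh, for dopamine beta-hydroxylase, went from 31.7 ± 2.15 to 10.4 ± 1.22 RPKM (SD, n = 4). Ddc, for the decarboxylase that makes dopamine, stayed at 0.339 and 0.355 RPKM, and Th, for tyrosine hydroxylase, was low at 2.25 ± 0.404 and 0.773 ± 0.133 RPKM (SD, n = 4). Of 5 glial markers 1 reached 1 RPKM, with list sums of 0.656 to 1.17 RPKM in control and 1.24 to 1.55 RPKM in knockout libraries and Aqp4 at 0. None of 4 blood and microglial or 4 epithelial markers did, and 1 of 4 fibroblast markers did, with sums of 2.74 to 3.48 and 2.73 to 3.22 RPKM; the part of these in any result below was not tested. Depth, which the table does not state, was estimated at 26227063 to 34510714 reads a library. In bulk RNA, fewer cells of a type and less RNA per cell cannot be told apart.

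Of the 47 members, 17 rose in knockout libraries and 5 fell (limma on log2(RPKM + 1), Benjamini-Hochberg adjusted p under 0.05), and 25 were not called. This was 36.2% higher and 10.6% lower, beside 30.4% and 15.5% of all 11465 genes tested. The median log2 fold change was 0.12 for the members and 0.06 for all genes tested, and the median of its absolute value was 0.17 and 0.15. As a set, the members therefore moved about as often and as far as other genes, and the findings lie in single members. Only 5 called members changed at least 1.5-fold in mean RPKM: Vamp1, Stx4a and Snap25 upward, and Vamp8 and Syt2 downward. In 21 members, or 44.7%, the control and knockout libraries did not overlap, beside 41.4% of all genes tested; 20 of them are among the 22 called members, and the other is Sv2a. Syn3 and Syt1 were called although their groups overlapped. Stxbp6, called lower, reached a mean of 1 RPKM only in the controls.

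**Figure D1:**
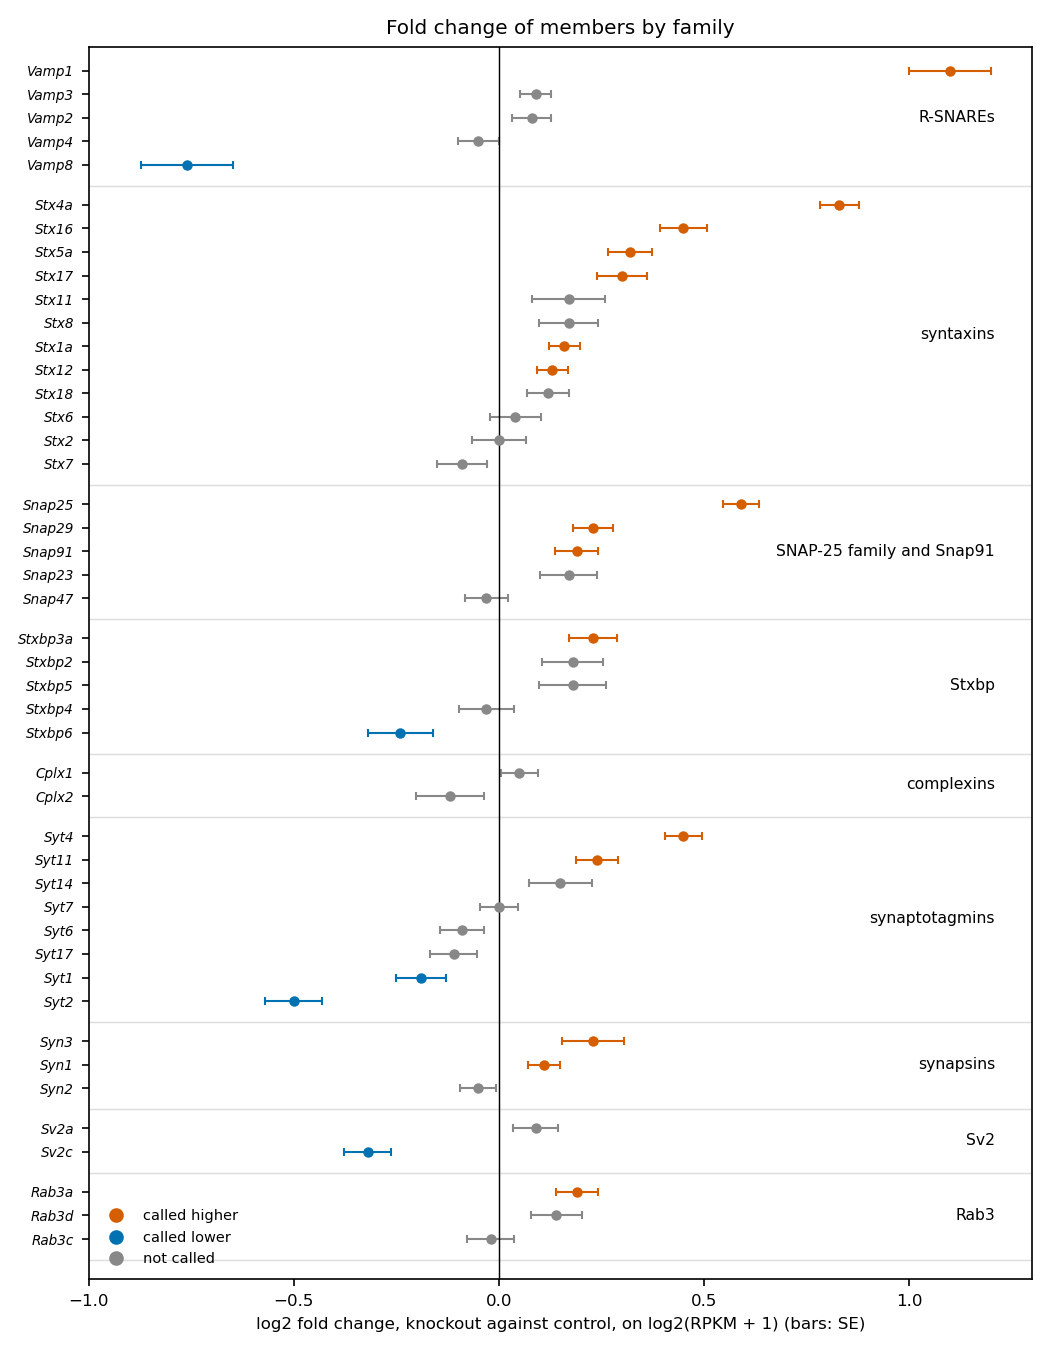
Log2 fold change of 45 members in knockout against control libraries on the log2(RPKM + 1) scale (horizontal axis), grouped by family, with bars of 1 SE; orange marks members called higher, blue lower and grey not called. Vamp1 at 1.10 and Vamp8 at -0.76 lie at the ends, and every called syntaxin lies to the right of 0.

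The split of calls moved with the scaling. With the RPKM columns scaled by median-of-ratios factors, which moved the median log2 fold change of all genes by -0.05, 13 members (27.7%) were higher and 9 (19.1%) lower, beside 24.2% and 23.4% of all genes. The members lower under that scaling were the 5 above with Syt6, Syt17, Stx7 and Syn2, and the higher ones lacked Stx1a, Stx12, Rab3a and Syn1. In the authors' deposited table, 17 members were higher and 5 lower at an adjusted p under 0.05, beside 29.7% and 14.5% of all genes. Of the 22 members called here, 21 were called there in the same direction, Syn1 was called only here and Stx8 only there.

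Calls also differed by chromosome. Of 947 tested genes on chromosome 2, 68.5% were called higher, and the median change there was 0.26 on the log2 scale and 0.04 elsewhere. The members Snap25 and Stx16 lie there and rose, and Snap23, also there, was not called. Among the 43 members elsewhere, 14 rose (32.6%) and 5 fell (11.6%), with a median of 0.10, beside 27% and 16.5% of all tested genes off that chromosome. Whether the changes of Snap25 and Stx16 belong to their chromosome or to the genes cannot be told apart here.

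Sequences are shown first for the R-SNAREs, because the paralogs Vamp1, Vamp2 and Vamp3 encode nearly the same SNARE motif and yet gave different values. Each line below holds 90 coding bases from that motif, in GENCODE M21 transcripts on GRCm38. The stretch is the codon-aligned one of Vamp2 with the most bases identical to Vamp1 and to Vamp3, added together. Capitals mark the 20 positions at which the 3 genes are not all the same. Vamp1 is read from coding bases 121 to 210 of 354 (chr6:125218692-125218991, plus strand), Vamp2 from 115 to 204 of 348 (chr11:69089218-69089811, plus strand) and Vamp3 from 76 to 165 of 309 (chr4:151050995-151056170, minus strand). Each window joins 2 exons, so the genomic spans include an intron.
Vamp1: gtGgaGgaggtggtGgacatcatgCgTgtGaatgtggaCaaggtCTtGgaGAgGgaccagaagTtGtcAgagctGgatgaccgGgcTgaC
Vamp2: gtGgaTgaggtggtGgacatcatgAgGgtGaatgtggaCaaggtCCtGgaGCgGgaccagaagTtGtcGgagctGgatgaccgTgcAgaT
Vamp3: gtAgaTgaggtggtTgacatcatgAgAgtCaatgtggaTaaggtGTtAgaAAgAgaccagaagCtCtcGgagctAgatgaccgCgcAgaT
Vamp1 and Vamp2 were identical at 81 of the 90 positions, Vamp2 and Vamp3 at 75, and Vamp1 and Vamp3 at 72. The longest run of coding sequence that Vamp1 shared exactly with Vamp2 was 18 bases and with Vamp3 12 bases, and Vamp2 and Vamp3 shared 17. Even this stretch, chosen for likeness to Vamp2, therefore differs between the paralogs every few codons.

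Vamp1, a synaptic vesicle R-SNARE, had the largest rise of the described members. Its level was 3.18, 3.66, 3.39 and 4.81 RPKM in control libraries 1 to 4 and 8.21, 10.4, 8.94 and 9.07 RPKM in knockout libraries 1 to 4. All 4 knockout libraries lay above all 4 controls, with control library 4 the highest of its group. Mean RPKM rose 2.44-fold (log2 fold change 1.10, SE 0.0994, adjusted p = 7.52e-06). Vamp3, the R-SNARE of recycling endosomes and the most abundant VAMP, was at 38.8, 38.4, 38.6 and 41.3 RPKM in control and 40.7, 42.5, 42.1 and 42.5 RPKM in knockout libraries. Its groups overlapped through control library 4 alone, and it was not called (log2 fold change 0.09, SE 0.038, adjusted p = 0.0615). Vamp2, the main R-SNARE of synaptic vesicles, went from 19.0 ± 0.598 to 20.1 ± 1.07 RPKM (SD, n = 4), with overlap and no call. Vamp1 was thus the least abundant of the 3 paralogs in both groups, but its share of their summed RPKM was 6.03% ± 0.898 in the controls and 12.8% ± 0.953 after knockout (SD, n = 4).

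Vamp8, an R-SNARE of late endosomes, autophagosomes and granules of secretory cells, had the largest fall of the described members. It was at 2.99, 3.06, 2.43 and 2.71 RPKM in control and 1.85, 0.89, 1.16 and 1.18 RPKM in knockout libraries. The groups did not overlap, and knockout library 1 lay closest to the controls. Mean RPKM fell to 45.3% of control (log2 fold change -0.76, SE 0.112, adjusted p = 0.000252), on an average of about 49 reads a library, the fewest behind any described member. Adding 1 before the log understates the change of a gene at so low a level. Vamp4, which works between endosomes and the trans-Golgi network, was at 11.6 ± 0.345 and 11.2 ± 0.561 RPKM (SD, n = 4) and was not called.

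**Figure D2:**
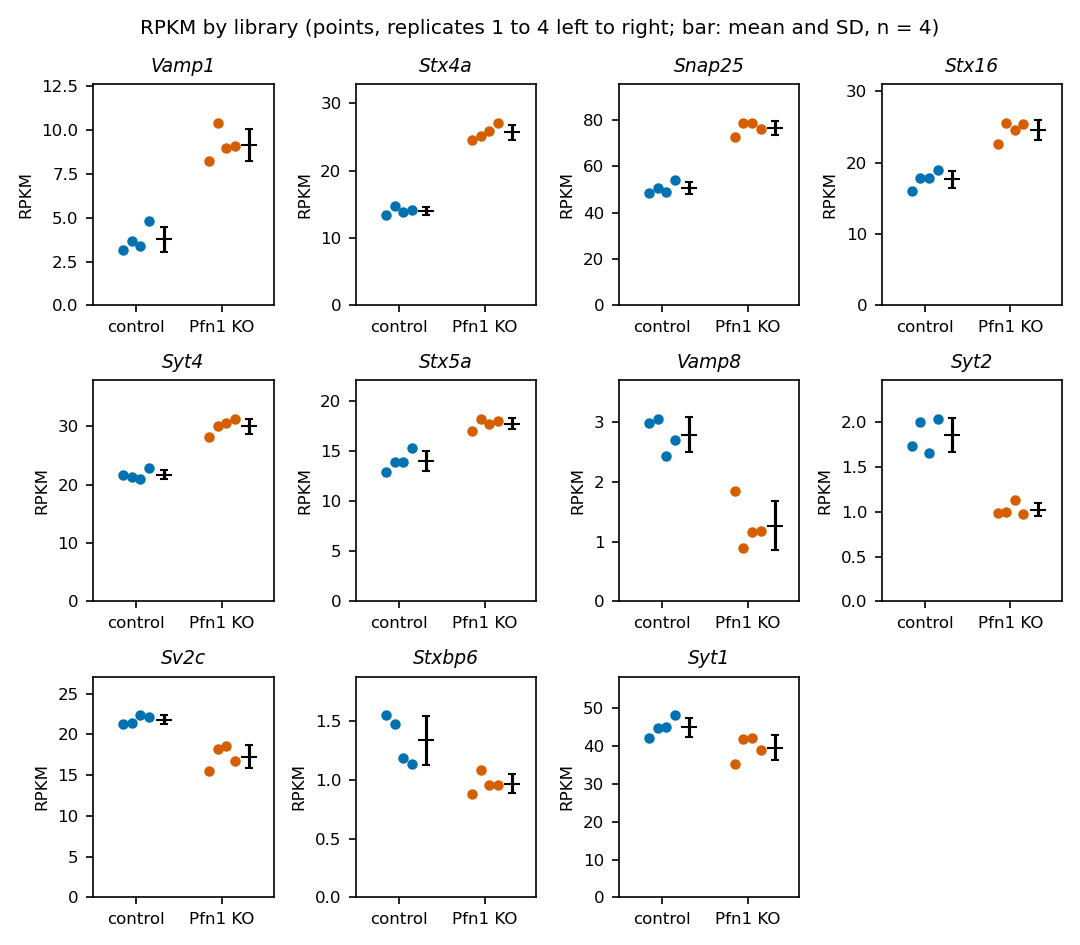
RPKM in each library (vertical axis, from 0) of 6 members with large rises and the 5 that fell; points are replicates 1 to 4 from left to right, control in blue and knockout in orange, with the mean and SD of each group in black. Groups are apart in every panel except Syt1, whose knockout library 3, at 42.3 RPKM, passes the lowest control at 42.2 RPKM.

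Of 13 described syntaxins, the Q-SNAREs that anchor fusion at the target membrane, 6 rose, none fell and 7 were not called. Their median log2 fold change was 0.16. Among all genes tested, 30.4% were higher and 15.5% lower. The absence of a fall did not hold once median-of-ratios factors were applied. Stx7 was then called lower (log2 fold change -0.15, adjusted p = 0.035), and Stx12 and Stx1a lost their calls. Stx4a, the mouse gene for syntaxin 4 of the cell surface, led the syntaxins that rose. It was at 13.4, 14.8, 13.9 and 14.1 RPKM in control and 24.6, 25.1, 25.9 and 27.1 RPKM in knockout libraries. The groups were far apart and tight, and mean RPKM rose 1.83-fold (log2 fold change 0.83, SE 0.0472, adjusted p = 2.57e-07). Stx4a shares 124 exon bases with another gene on the opposite strand. Whether counting used strand is not given in the sources used here, so reads of these bases may have gone to either gene, and 9 described members share exon bases with another gene of the table in this way.

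The remaining syntaxins that rose serve internal membranes or the neuronal cell surface. Stx16, of the trans-Golgi network, was at 16.0, 17.9, 17.8 and 19.0 RPKM in control and 22.6, 25.6, 24.6 and 25.5 RPKM in knockout libraries, a 1.39-fold rise without overlap (log2 fold change 0.45, SE 0.0576, adjusted p = 8.49e-05). Stx5a, of the Golgi, was at 12.9, 13.9, 13.9 and 15.3 RPKM in control and 17.0, 18.2, 17.7 and 18.0 RPKM in knockout libraries, a 1.27-fold rise without overlap (adjusted p = 0.000508). Stx17, which acts in the fusion of autophagosomes with lysosomes, was at 2.74, 2.69, 2.66 and 3.15 RPKM in control and 3.68, 3.62, 3.61 and 3.77 RPKM in knockout libraries. It rose 1.31-fold (adjusted p = 0.00207), and the 4 knockout libraries were closer to each other than control library 4 was to the other controls. Stx12, of recycling endosomes, was the most abundant member in control libraries and second to Snap25 after knockout, at 64.6, 65.8, 63.5 and 67.8 RPKM in control and 69.0, 70.6, 74.6 and 73.0 RPKM in knockout libraries. Its groups did not overlap, yet the difference was small (log2 fold change 0.13, SE 0.0377, adjusted p = 0.0138) and was not called with median-of-ratios scaling (0.07, adjusted p = 0.0757). Stx1a, the neuronal syntaxin of the cell surface, went from 29.0 ± 0.653 to 32.5 ± 0.828 RPKM (SD, n = 4; adjusted p = 0.00508), also a call that median-of-ratios scaling ended (adjusted p = 0.0578).

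Of the other syntaxins, Stx18, a syntaxin of the endoplasmic reticulum, was at 27.5 ± 1.42 and 29.9 ± 1.81 RPKM (SD, n = 4), was not called, and shares 574 exon bases with Nsg1 on the opposite strand, a gene at 0.43 and 0.642 RPKM. The late endosomal Stx7 and Stx8 differed in direction, with log2 fold changes of -0.09 (SE 0.0607) and 0.17 (SE 0.0712), and neither was called. Stx6, of the trans-Golgi network, and Stx2, of the cell surface, were not called either, at 0.04 (SE 0.0619) and 0.00 (SE 0.066). Stx7 gained its call as lower only under median-of-ratios scaling. Stx11, known from granule release in cytotoxic lymphocytes, was near the threshold at 1.13 ± 0.157 and 1.41 ± 0.259 RPKM (SD, n = 4) and not called.

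Snap25 encodes the Q-SNARE that pairs with syntaxin 1 in neuronal exocytosis. It was at 48.6, 50.4, 48.7 and 54.1 RPKM in control and 72.6, 78.7, 78.6 and 75.9 RPKM in knockout libraries. Every knockout library was well above every control, and mean RPKM rose 1.52-fold (log2 fold change 0.59, SE 0.0443, adjusted p = 2.16e-06). Its widely expressed relative Snap23, also on chromosome 2, was at 12.8 ± 1.34 and 14.5 ± 0.639 RPKM (SD, n = 4) with overlap (adjusted p = 0.0626). Snap29, a relative without a membrane anchor, rose 1.2-fold from 7.07 ± 0.0984 to 8.48 ± 0.397 RPKM (SD, n = 4; adjusted p = 0.00274). It shares 60 exon bases with Pi4ka on the opposite strand, which was at 20.6 and 26.1 RPKM. Snap47 was at 32.5 ± 1.3 and 31.9 ± 2.28 RPKM (SD, n = 4), not called, and shares 307 exon bases with Jmjd4, at 7.77 and 7.49 RPKM. Snap91, which is no SNARE but the clathrin assembly protein of synaptic vesicle endocytosis, rose 1.15-fold from 16.5 ± 0.693 to 19.0 ± 1.19 RPKM (SD, n = 4; adjusted p = 0.0111). Snap25 made up 42.3% ± 0.437 of the summed RPKM of these 5 genes in control and 50.9% ± 1.58 after knockout (SD, n = 4).

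Of 6 described Stxbp genes, 2 rose and 1 fell, beside 30.4% higher and 15.5% lower of all genes tested. Stxbp3a, whose protein binds syntaxin 4, was at 2.61, 2.90, 2.67 and 2.91 RPKM in control and 3.44, 3.48, 3.27 and 3.56 RPKM in knockout libraries, a 1.24-fold rise without overlap (log2 fold change 0.23, SE 0.0581, adjusted p = 0.0065). Stxbp3a and Stx4a were both called higher, as were 30.4% of all genes tested. Stxbp4, for another syntaxin 4 binding protein, was not called (log2 fold change -0.03, adjusted p = 0.748). Stxbp6, which encodes amisyn, a protein with a SNARE motif and no membrane anchor, was at 1.55, 1.47, 1.18 and 1.13 RPKM in control and 0.878, 1.08, 0.957 and 0.953 RPKM in knockout libraries. It passed the filter of 1 RPKM only through the controls, with means of 1.33 RPKM there and 0.968 RPKM after knockout. Its place among the members that fell is therefore no support. The groups lay close without overlap, and Stxbp6 fell to 72.6% of control (log2 fold change -0.24, SE 0.0788, adjusted p = 0.0256). That call was lost on leaving out control library 1 or 2 or knockout library 1, 3 or 4, with adjusted p of 0.0528 to 0.0791.

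The remaining Stxbp genes described here were not called. Stxbp5, for the fusion inhibitor tomosyn, was at 10.6, 10.9, 11.0 and 13.5 RPKM in control and 11.3, 14.0, 13.7 and 13.4 RPKM in knockout libraries. Control library 4 lay among the knockout libraries and knockout library 1 near the other controls (log2 fold change 0.18, adjusted p = 0.0986). Stxbp2, a Munc18 protein known from granule secretion, was at 3.31 ± 0.443 and 3.86 ± 0.137 RPKM, and Stxbp4, for a syntaxin 4 binding protein, at 3.19 ± 0.295 and 3.10 ± 0.16 RPKM (SD, n = 4).

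Both described complexins gave no call. Cplx1, the main complexin here, was at 40.8, 40.2, 43.0 and 39.2 RPKM in control and 44.4, 39.7, 42.0 and 42.9 RPKM in knockout libraries, with full overlap (log2 fold change 0.05, SE 0.0446, adjusted p = 0.402). Cplx2 was at 2.92 ± 0.361 and 2.62 ± 0.292 RPKM (SD, n = 4; log2 fold change -0.12, SE 0.083).

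Of the 8 described synaptotagmins, 2 were called higher, 2 lower and 4 not called, with a median log2 fold change of -0.05. Among all genes tested, 30.4% were called higher and 15.5% lower, with a median of 0.06. A family of 8 genes is too small to set apart from those shares. The pair that fell, Syt1 and Syt2, are the fast calcium sensors of transmitter release. Syt2 was at 1.74, 2.00, 1.66 and 2.04 RPKM in control and 0.993, 0.996, 1.13 and 0.974 RPKM in knockout libraries. It fell to 54.9% of control without overlap (log2 fold change -0.50, SE 0.0699, adjusted p = 0.000174). Syt1, by far the more abundant, was at 42.2, 44.7, 45.0 and 48.3 RPKM in control and 35.2, 41.9, 42.3 and 38.9 RPKM in knockout libraries. Its groups touched, mean RPKM was 87.8% of control (log2 fold change -0.19, SE 0.0604, adjusted p = 0.0258), and without control library 4 and knockout library 1 the call was lost (-0.10, adjusted p = 0.0848). The call was also lost on leaving out control library 2, 3 or 4 or knockout library 1 or 4 alone, with adjusted p of 0.0507 to 0.0643.

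The synaptotagmins that rose, Syt4 and Syt11, encode proteins that lack calcium binding of the Syt1 kind. Syt4, found on dense-core vesicles, was at 21.6, 21.4, 21 and 22.8 RPKM in control and 28.2, 30.0, 30.6 and 31.3 RPKM in knockout libraries. The rise was 1.38-fold without overlap (log2 fold change 0.45, SE 0.0446, adjusted p = 1.51e-05). Syt11 was at 9.40, 10.4, 10.5 and 10 RPKM in control and 12.2, 11.4, 12.6 and 12.1 RPKM in knockout libraries, a 1.2-fold rise without overlap (adjusted p = 0.00246). In shares of the summed RPKM of the 8 genes, Syt1 went from 36.6% ± 0.436 to 31.4% ± 1.18 and Syt4 from 17.7% ± 0.523 to 23.9% ± 0.662 (SD, n = 4), while the sum itself was 117 to 130.3 RPKM in control and 117 to 131 RPKM in knockout libraries. Syt7, a slower calcium sensor of high affinity, was at 11.3 ± 0.439 and 11.3 ± 0.224 RPKM (SD, n = 4). Syt6, Syt14 and Syt17 were not called either, with log2 fold changes of -0.09 (SE 0.0537), 0.15 (SE 0.0767) and -0.11 (SE 0.0579).

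**Figure D3:**
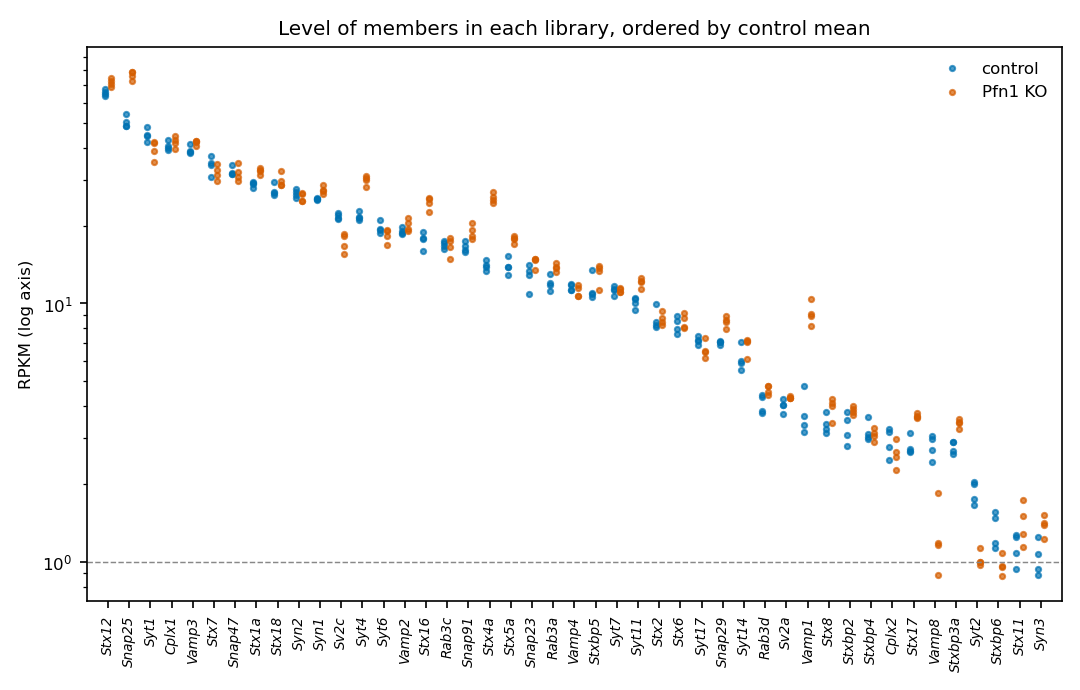
RPKM of 45 members in each library on a logarithmic vertical axis, ordered by control mean; blue points are control and orange points knockout libraries, and the dashed line marks 1 RPKM. Levels run from Stx12 and Snap25, which reach 74.6 and 78.7 RPKM, to members near the line such as Syn3 and Stx11, and the steps of Vamp1, Stx4a, Vamp8 and Syt2 stand out from neighbours of like level.

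Of 3 synapsins, 2 were called higher with small differences. Among all genes tested 30.4% were called higher, and 3 genes are too few to compare with that share. Syn1 was at 25.3, 25.7, 25.4 and 25.2 RPKM in control and 26.5, 28.8, 27.2 and 27.4 RPKM in knockout libraries, without overlap (log2 fold change 0.11, SE 0.0393, adjusted p = 0.0409). The call was lost in 11 of 17 alternatives, among them both other scalings and the removal of each library other than knockout library 1. Syn3 went from 1.04 ± 0.155 to 1.38 ± 0.124 RPKM (SD, n = 4; log2 fold change 0.23, SE 0.0761, adjusted p = 0.0284), with overlapping groups. Its call was lost when any of control libraries 1, 2 and 3 or knockout libraries 2, 3 and 4 was left out, with adjusted p of 0.0528 to 0.0798. It shares 1733 exon bases with Timp3, which lies within it on the opposite strand and was at 1.38 ± 0.0951 and 1.63 ± 0.0424 RPKM, so the origin of these reads is uncertain. Syn2 was at 26.7 ± 0.906 and 25.8 ± 1.03 RPKM (SD, n = 4), not called, and shares 90 exon bases with Timp4.

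Sv2c, the Sv2 form enriched in the basal ganglia, was the described Sv2 gene that fell. It was at 21.3, 21.4, 22.4 and 22.1 RPKM in control and 15.5, 18.2, 18.6 and 16.7 RPKM in knockout libraries. The groups did not overlap, and mean RPKM fell to 79.2% of control (log2 fold change -0.32, SE 0.0563, adjusted p = 0.000746). Sv2a, the form found across the brain, was at 4.01 ± 0.216 and 4.32 ± 0.0336 RPKM (SD, n = 4), without overlap and without a call (log2 fold change 0.09, SE 0.0545, adjusted p = 0.212). Sv2b was near 0, at 0.0192 and 0.00943 RPKM.

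Of the Rab3 GTPases, Rab3c was the most abundant, at 17.5, 16.7, 16.3 and 17.2 RPKM in control and 14.9, 17.9, 17.4 and 16.5 RPKM in knockout libraries. Its groups overlapped fully (log2 fold change -0.02, SE 0.0572, adjusted p = 0.769). Rab3a, the main synaptic form, rose 1.15-fold from 12.0 ± 0.737 to 13.8 ± 0.428 RPKM (SD, n = 4; log2 fold change 0.19, SE 0.0516, adjusted p = 0.0119), a call that median-of-ratios scaling ended (0.13, adjusted p = 0.0505). It shares 29 exon bases with Mpv17l2, and Syn1 shares 9 with Araf. Rab3d, known from granules of exocrine cells, was at 4.09 ± 0.343 and 4.62 ± 0.182 RPKM (SD, n = 4; adjusted p = 0.0789).

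Members just inside the level of 1 RPKM were Syn3, Stx11 and Stxbp6. Just outside, with the control mean first, were Rab3b at 0.915 and 0.505 RPKM, Stx3 at 0.933 and 0.775 RPKM, and Stxbp5l at 0.772 and 0.931 RPKM. Members under 1 RPKM did not enter the counts above.

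Because a ratio of 2 genes within a library does not depend on the scaling of that library, 1 changed member of each of 8 families was also set against the most abundant other member of that family. These 8 pairs were chosen after the values were seen, 7 of them are given, and the other called members were not compared in this way. Vamp1 against Vamp3 was 0.082 to 0.116 in control and 0.201 to 0.245 in knockout libraries. Stx4a against Stx12 was 0.207 to 0.225 and 0.347 to 0.371, and Snap25 against Snap47 was 1.53 to 1.57 and 2.08 to 2.65. In none of these pairs did the groups overlap. Sv2c against Sv2a was 5.2 to 5.71 in control and 3.55 to 4.31 in knockout libraries, and Syt2 against Syt1 was 0.0369 to 0.0448 and 0.0238 to 0.0282. In these 5 pairs a two-sided exact permutation test gave p = 0.0286, the smallest that 4 against 4 libraries allow. The Benjamini-Hochberg adjusted value was 0.0381 over the 8 pairs. Each changed member was the called one with the largest absolute log2 fold change of its family in these same libraries. The adjustment does not cover that choice, so the p-values of these ratios are no support for the changes. Rab3a against Rab3c and Syn3 against Syn1 overlapped between groups and gave an exact permutation p of 0.0571. The ratios of Sv2c to Sv2a and of Syt2 to Syt1 were lower in knockout libraries, opposite to the other pairs. That direction follows from the choice of Sv2c and Syt2, which had fallen, as the changed members, and is no further result. Snap25 was compared with a gene of another chromosome.

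**Figure D4:**
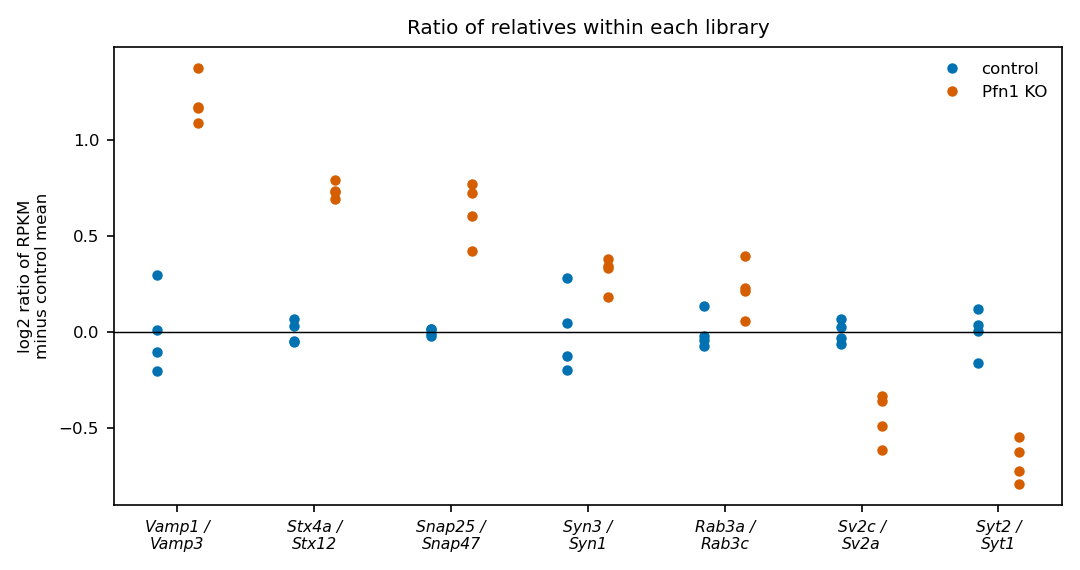
Log2 ratio of RPKM of 1 changed member in each of 7 families to the most abundant other member of that family within each library, less the control mean (vertical axis); blue points are the 4 control and orange points the 4 knockout libraries. The knockout points of Vamp1 over Vamp3 centre on 1.20 and those of Syt2 over Syt1 on -0.67, both clear of the controls.

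Promoter sequence is shown for the 4 members with the largest changes that have an entry, Vamp1, Stx4a, Vamp8 and Syt2, so that their differences can be read from the letters. RefSeq start regions on GRCm38.p6 were matched for 38 of the 47 described members, with 49 windows in all. The windows are the 250 bases before a start, 5′ to 3′ on the gene's strand. Capitals mark matches on either strand to the GC box (GGGCGG), the CCAAT box (CCAAT), the cyclic AMP response element (TGACGTCA), the E-box (CACGTG), the TATA box (TATAAA) or the CArG box.
Vamp1, chr6:125215331-125215580, plus strand: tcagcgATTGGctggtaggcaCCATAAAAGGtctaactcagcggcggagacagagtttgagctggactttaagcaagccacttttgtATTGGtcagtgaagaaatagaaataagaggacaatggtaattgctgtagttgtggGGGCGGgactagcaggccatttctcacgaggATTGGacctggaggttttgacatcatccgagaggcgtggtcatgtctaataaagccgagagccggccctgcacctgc
Stx4a, chr7:127841558-127841807, plus strand: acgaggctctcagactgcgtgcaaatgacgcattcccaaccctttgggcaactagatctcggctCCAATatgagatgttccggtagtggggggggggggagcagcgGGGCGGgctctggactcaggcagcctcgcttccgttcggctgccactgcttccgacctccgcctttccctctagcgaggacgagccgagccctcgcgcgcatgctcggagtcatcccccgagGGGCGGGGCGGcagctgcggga
Vamp8, chr6:72390668-72390917, minus strand: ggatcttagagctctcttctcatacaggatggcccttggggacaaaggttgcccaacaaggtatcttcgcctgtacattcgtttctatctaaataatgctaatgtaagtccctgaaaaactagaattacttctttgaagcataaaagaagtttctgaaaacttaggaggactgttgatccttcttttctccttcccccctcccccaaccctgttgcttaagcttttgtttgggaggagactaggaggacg
Syt2, chr1:134646362-134646611, plus strand: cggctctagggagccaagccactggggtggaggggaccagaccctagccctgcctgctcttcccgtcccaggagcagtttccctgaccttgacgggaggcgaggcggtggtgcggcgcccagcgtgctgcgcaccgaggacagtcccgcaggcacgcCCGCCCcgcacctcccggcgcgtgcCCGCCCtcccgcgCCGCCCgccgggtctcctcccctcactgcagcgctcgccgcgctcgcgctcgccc
Syt2, chr1:134709050-134709299, plus strand: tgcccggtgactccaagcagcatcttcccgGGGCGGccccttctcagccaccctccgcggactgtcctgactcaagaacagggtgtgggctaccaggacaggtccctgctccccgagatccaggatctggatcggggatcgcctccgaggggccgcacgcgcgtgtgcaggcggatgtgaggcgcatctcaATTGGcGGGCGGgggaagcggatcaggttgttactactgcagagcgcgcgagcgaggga
Vamp1 held 5 matches: the CArG box, 3 CCAAT boxes and a GC box, and Stx4a held a CCAAT box and 3 GC boxes, 2 of them overlapping. Vamp8 held none of the motifs searched. Each Syt2 window held 3 matches, in the first all GC boxes.

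Across the 49 member windows, a GC box was present in 65.3%, beside 32.7% of the 32851 mouse windows of the same length. Those 32851 windows were not limited to genes that reached 1 RPKM, as the member windows were, so the sets are unlike. The part of this in the differences below and in that of the GC box was not tested. A CCAAT box was present in 32.7% of member windows and 33.8% of all windows. A TATA box was present in 2.04% and 12.4%, with Stx2 as its only member, and the E-box in 12.2% and 6.02%, in Stx6, Stxbp2, Syt14, Syt6 and Vamp4. The cyclic AMP response element was present in 4.08% and 1.55%, in Stxbp3a and Syn1. The CArG box, the motif bound by serum response factor, was present in 2.04% and 1.47%, and Vamp1 was the only member with it. Of 29 members with a GC box, 11 were called higher and 3 lower, beside 13 and 5 of all 38 members with a window. These are matches of letters and were not tested for use.

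The genes that work beside the members were read in 7 lists of 117 genes, of which 89 were tested; 37 rose and 13 fell, with a median log2 fold change of 0.10, or 29 and 19 with median-of-ratios scaling. The shares over all genes given above, 30.4% higher and 15.5% lower, or 24.2% and 23.4% with that scaling, are the base for these counts and those of the single lists. Of 12 other SNAREs, 4 rose and 1 fell. Use1, an endoplasmic reticulum SNARE, rose 1.26-fold (adjusted p = 0.00057), Sec22b, the R-SNARE between endoplasmic reticulum and Golgi, rose 1.17-fold (adjusted p = 0.00221), and its relative Sec22c fell to 73.9% of control (adjusted p = 0.000237). Of 9 genes for SNARE disassembly and further Sec1/Munc18 proteins, 7 rose and 1 fell. Napb, for the brain form of the SNAP adaptor that brings NSF to spent SNARE complexes, went from 5.14 ± 0.354 to 8.98 ± 0.584 RPKM (SD, n = 4), a 1.75-fold rise (adjusted p = 6.98e-06), and it lies on chromosome 2. Vps33b, a Sec1/Munc18 protein of endosomes, rose 1.23-fold and Scfd2 1.22-fold (adjusted p = 0.000597 and 0.00543).

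Of 16 tested genes for priming, tethering and calcium sensing, 7 rose and 5 fell, or 4 and 5 with median-of-ratios scaling. Ppfia2, for the active zone scaffold liprin-alpha-2, fell from 2.31 ± 0.284 to 0.939 ± 0.076 RPKM (SD, n = 4), to 40.7% of control (log2 fold change -0.77, SE 0.0747, adjusted p = 1.32e-05). It passed the filter of 1 RPKM only through the controls. Rims2, a Rab3 effector of release sites, rose 1.42-fold from 16.4 ± 1.77 to 23.3 ± 1.68 RPKM, and the vesicle priming factor Unc13a rose 1.37-fold from 17.5 ± 0.616 to 23.9 ± 0.913 RPKM (SD, n = 4; adjusted p = 0.000261 and 1.9e-05). The 9 exocyst genes, whose complex tethers vesicles to the cell surface, split 3 higher and 2 lower, with Exoc4 up 1.22-fold, Exoc8 up 1.2-fold and Exoc5 at 82.2% of control (adjusted p = 0.0041, 0.00443 and 0.00944).

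Of 15 tested vesicle membrane proteins and transporters, 7 rose and 2 fell. Dnajc5, a chaperone of SNAP-25 on chromosome 2, Syngr1, a vesicle membrane protein, and Slc18a1, the vesicular monoamine transporter of endocrine cells, each rose 1.29-fold (adjusted p = 0.000206, 0.000469 and 0.00772). Of 19 tested endocytosis genes, 6 rose and 1 fell. Cltb, a clathrin light chain, rose 1.59-fold, Bin1, for the membrane-bending protein amphiphysin 2, 1.44-fold, and Synj1, for the phosphatase that uncoats vesicles, 1.4-fold (adjusted p = 0.000107, 1.08e-05 and 4.66e-05). Of 9 tested genes of the Rab3 and Rab27 cycle, 3 rose and 1 fell. Among those that rose, Madd, the Rab3 exchange factor on chromosome 2, did so 1.32-fold, and Rab3gap1, part of the Rab3 GTPase-activating complex, 1.24-fold (adjusted p = 7.27e-05 and 0.00159).

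Libraries of a group did not contribute alike to the called members. The same counts over all called genes were not made, so a pattern of these members and one of whole libraries cannot be told apart. Among the 22 called members, knockout library 1 was the nearest of its group to the control mean in 12, libraries 2 and 3 in 5 each and library 4 in none. Control library 4 was the nearest of its group to the knockout mean in 11, library 3 in 5 and libraries 1 and 2 in 3 each. Without control library 4 and knockout library 1, 23 members were higher and 4 lower, beside 38.5% and 13.7% of all genes. Leaving out libraries that lie nearest the other group widens differences by its construction, so calls gained in this way are no support.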

How the data were processed

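RNA was measured by sequencing in 4 control and 4 PFN1 KO libraries. Stranded libraries were made from total RNA after ribosomal depletion, per the labels' protocols. A single table was used, in which the authors give RPKM for every gene and library. Beside the RPKM, the authors deposited their own log2 fold change, their mean log2 CPM, and a p-value with its adjusted form. Bowtie, CASAVA, RSEM, TopHat, edgeR and hg19 are named in the submitters' processing notes without role or order, while the gene numbers are those of mouse. Settings, annotation and whether strand entered the counting are not given in the sources used here.

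The members and the gene lists were chosen with earlier results of these data known. The table holds no counts, so limma 3.58.1 in R 4.3.3 was run on log2(RPKM + 1), with group as the only term and a trended prior variance. All 11465 genes that reached 1 RPKM on average in either group entered. The test was two-sided, and a call needed an adjusted p (Benjamini-Hochberg) under 0.05. Plain folds are those of mean RPKM, and no further scaling was applied. The steps were tested on simulated data with known fold changes.

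Depth is not stated in the table. It was estimated from the authors' mean log2 CPM of genes at 0 in every library, taking a prior of 2 reads as edgeR does by default, and from the commonest ratio of low RPKM values between libraries, a ratio that 24.3% to 32.2% of low genes shared. It bounds no interval here.

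Values in every library were given for the most abundant member of each family and for up to 10 called members in each direction with the largest log2 fold change. Up to 3 called genes of each list were named, and Pfn1 as the targeted gene. Some genes that enter the counts are not reported here by name or drawn. Ratios within libraries were compared with exact permutation tests (scipy 1.17.1). Chromosomes came from RefSeq on GRCm38.p6, matched by gene number for all 65 members. Overlapping exons and coding sequences came from GENCODE M21, and promoter windows from RefSeq. The alternatives were other scalings, pseudocount, filters and prior variance, the replicate number as a block, each library left out, the pair of control library 4 and knockout library 1 left out, and the genes of chromosome 2 left out.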

Additional observations from a re-analysis of the deposited data

Results flagged for a closer look

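Each described member was examined in each group for 1 library far from the other 3, over 94 groups of 4 libraries, and 7 were found; chance alone gives about 1 in 20. Control library 4 was the distant one, and the highest, in 4 of the 7. It held Vamp3 at 41.3 RPKM, beside 38.4 to 38.8 RPKM in the other controls. Stx17 stood at 3.15 RPKM there against 2.66 to 2.74 RPKM, and Stxbp5 at 13.5 RPKM against 10.6 to 11.0 RPKM. Snap47 was at 34.4 RPKM in the same library and at 31.7 to 32 RPKM in the others.

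In knockout library 3, Syt2 was at 1.13 RPKM beside 0.974 to 0.996 RPKM in its group, and Snap23 was at 13.5 RPKM beside 14.7 to 14.9 RPKM. Syt14 was at 6.07 RPKM in knockout library 1 and at 7.08 to 7.23 RPKM in the other knockout libraries. Of these genes, Stx17 and Syt2 kept their calls in every alternative in which they were tested.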

How the results depend on the processing

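Of the 22 called members, 15 kept the call in every alternative in which they were tested. The other 7, Rab3a, Stx12, Stx1a, Stxbp6, Syn1, Syn3 and Syt1, lost it in at least 1, and 4 of these, Stxbp6, Syn1, Syn3 and Syt1, when 1 library was left out. No called member changed sign; 7 uncalled members did without a call, and 11 gained a call in at least 1 alternative. Members called lower numbered 9 with median-of-ratios scaling and 2 with the filter raised to 5 RPKM, where Vamp8, Syt2 and Stxbp6 were no longer tested. With each library left out in turn the number lower was 3 to 5 (3 without control replicate 2, knockout replicate 1 or knockout replicate 4), and the number higher 15 to 22. Without the genes of chromosome 2, 14 members were higher and 5 lower.

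With the replicate block, 17 members were higher and 5 lower, where Snap23 gained a call (adjusted p = 0.026) and Syn1 lost it (adjusted p = 0.0562). Shares over all genes were not computed for the block, the raised filter, single libraries left out or chromosome 2 left out. The member counts of those runs therefore have no base. Deviations of same-numbered libraries correlated at 0.176, 0.0233, -0.192 and -0.0839. Those of differently numbered libraries correlated at -0.316 to 0.26. No pairing by number was seen, though 4 libraries a group are too few to show that there is none. For the other vesicle genes, counts stayed within 1.5 times of 37 higher and 13 lower under every alternative run. RPKM without counts, unstated strand use and 4 libraries a group limit small differences, above all near 1 RPKM.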

Other observations

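Among the 18 members under 1 RPKM in both groups, 2 lay apart between groups. The share of all genes under 1 RPKM that did so was not computed, so this count has no base. Rab3b, a Rab3 form of endocrine cells, was at 0.854, 0.851, 0.902 and 1.05 RPKM in control and 0.517, 0.482, 0.545 and 0.477 RPKM in knockout libraries, on about 72 reads a library. Syt5, a calcium-binding synaptotagmin of dense-core vesicles, was at 0.185, 0.132, 0.196 and 0.197 RPKM in control and 0.0197, 0.04, 0.0173 and 0 RPKM in knockout libraries. Neither pair of groups overlapped, and Syt5 rested on about 5.25 reads a library on average. Stx19 was at 0.276 ± 0.128 and 0.523 ± 0.0731 RPKM (SD, n = 4), with overlap. With no filter on low values, limma called Rab3b lower (log2 fold change -0.35, adjusted p = 0.000556), Syt5 lower (-0.21, adjusted p = 0.000289) and Stx19 higher (0.26, adjusted p = 0.0216). In the authors' deposited table their log2 fold changes were -0.85, -3.06 and 0.93, with adjusted p of 1.2e-07, 2.23e-06 and 0.0133. Syt15, at 0.0135 and 0.0448 RPKM, was also higher there (1.63, adjusted p = 0.0386), but limma did not call it (adjusted p = 0.122). These genes were singled out after their values were seen.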
